A study of Homo sapiens with 23 samples.

Results

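Intermediate filament genes code for the rope-like proteins that form one of the cell's filament systems, and 10 of them were followed here across drug-resistant melanoma clones. They were taken by symbol from the deposited expression table: VIM, NES, KRT7, KRT8, KRT18, KRT19, LMNA, LMNB1, SYNM and NEFL. The table held 35438 genes and had a row for 9 of the 10. NEFL was not analysed here. Of the 9, 7 passed the filter for testing, a level of at least 1 TPM in at least 2 libraries. NES and KRT19 stayed below it and are given as levels. KRT7 passed that filter through the clone libraries alone, because no untreated library reached 1 TPM.

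The cells were WM989 A6-G3, a human BRAF-mutant melanoma line that was taken through single-cell bottlenecks, so that the starting population was clonal. Untreated cells gave 3 libraries. Clones 7 (line F9), 8 (G12) and 9 (I11) grew out under 1 µM vemurafenib, a BRAF inhibitor, and were kept in it. Clones 10 (A2), 11 (A11), 12 (C3) and 13 (E8) grew out under dabrafenib (250 nM), also a BRAF inhibitor, combined with trametinib (2.5 nM), which inhibits MEK, and stayed in the combination. Each clone gave 3 libraries, except clone 11 with 2, replicates 2 and 3. All samples have the genotype WT in the labels and were grown in the same medium, apart from the drug. Each clone descends from 1 colony, so the drug, the colony it came from and its time in culture cannot be told apart. Libraries of a group are labelled as biological replicates, but what made them separate is not stated, and p-values against untreated cells rest on a spread that may be technical.

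Intermediate filament proteins are built from a central coiled-coil rod and differ in tissue range. Type I keratins such as keratin 18 pair with type II keratins such as keratin 8 in simple epithelia. Vimentin forms the filaments of mesenchymal cells and of most melanoma cells in culture, and nestin and synemin join vimentin or desmin filaments as long-tailed partners. The lamins line the inner face of the nucleus: lamin A/C, from LMNA, is tied to stiff and spread cells, and lamin B1 falls in senescent cells. In pathology, keratins mark carcinomas and vimentin marks sarcomas and melanomas, although melanomas can carry some keratin 8 and keratin 18.

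Levels are in TPM, a share of each library's transcripts that corrects for transcript length, so that genes can be set beside each other within a library. The values were scaled between libraries. A log2 fold change is on the log2(scaled TPM + 1) scale, which understates the change of genes at a few TPM or less. A call needed 2 things of a gene: a Benjamini-Hochberg adjusted p under 0.05 from limma over the 15657 genes in the fit, and a change of 1 or more on the log2 scale in either direction. The number of genes above 0 ran from 14415 to 24039 per library. The lowest number was in clone 10 replicate 1, and the next lowest, 18671, in clone 7 replicate 1. TPM keeps no depth, so the reads behind a value are unknown.

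KRT7, KRT18 and SYNM were higher in the clones. Taking the mean of the 7 clones, limma called these 3 of the 7 tested genes higher than in untreated cells and none, 0 of 7, lower. Over all genes, 10.9% were called higher and 7.91% lower. KRT7 had entered the test through the clone libraries alone, so its call is part of a count that describes the set and supports nothing further. KRT8, LMNB1 and VIM had an unadjusted p under 0.05 as well, at log2 fold changes under 1, and were not called. The median log2 fold change was 0.527 over the 7 genes and -0.0098 over all genes tested. The median is a description for the same reason. The 7 clones were compared with the same 3 untreated libraries, so the clone comparisons are not independent of each other.

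The clones called different numbers of these genes. In clone 7, limma called 3 of the 7 (all genes: 19.5%), in clone 8 also 3 (20.3%) and in clone 9 also 3 (19.8%). These were KRT7, KRT18 and SYNM each time. Clone 11 had 2 calls (21.2%), KRT7 and SYNM. In clone 10 (22.3%), clone 12 (19.5%) and clone 13 (20.6%) the call was KRT7 alone. Every called gene was higher than in untreated cells. The counts against untreated cells include KRT7, which entered the test through the clone libraries alone. They therefore describe the set and support nothing further. In the test of equality among the 7 clones, where the clone means also had to span 1 or more on the log2 scale, KRT7, KRT18 and SYNM were called, 3 of 7, against 25.3% of all genes.

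**Figure D1:**
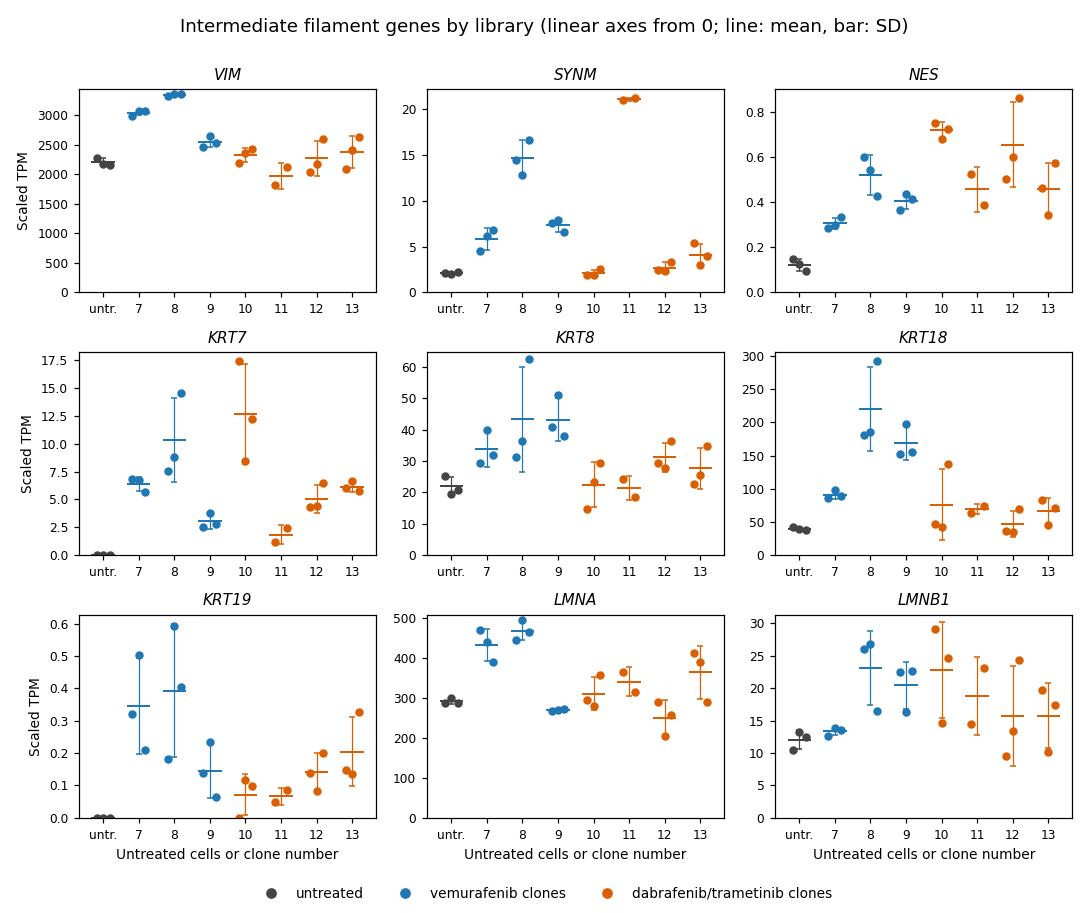
Scaled TPM of 9 intermediate filament genes in each library, on linear axes from 0, for untreated cells and clones 7 to 13. Points are libraries, lines are group means and bars are SD. KRT7 lies at or near 0 in untreated cells and above 1 TPM in all 20 clone libraries, while SYNM is highest in clones 8 and 11.

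KRT7 codes for keratin 7, a type II keratin of ductal and glandular epithelium that pathologists use to trace carcinomas. The gene was listed at 0 in untreated replicates 1 and 3 and at 0.0468 TPM in replicate 2. In the vemurafenib clones it stood at 6.82, 6.71 and 5.66 TPM in clone 7, at 7.57, 8.84 and 14.6 TPM in clone 8, and at 2.54, 3.76 and 2.78 TPM in clone 9. In the dabrafenib/trametinib clones it stood at 17.4, 8.50 and 12.2 TPM in clone 10, at 1.22 and 2.42 TPM in clone 11, at 4.28, 4.40 and 6.49 TPM in clone 12, and at 5.99, 6.69 and 5.74 TPM in clone 13. All 20 clone libraries lay above the highest untreated library. The gene entered the test through clone libraries alone, so its changes against untreated cells are given without a p. The log2 fold change was 2.68 (SE 0.18) in the mean of the clones. Fitted among 30088 genes without the filter, it was 2.68 as well. Because the untreated level is near 0, this size rests on the pseudocount: it was 1.12 with a pseudocount of 5 and 5.58 with 0.1, and the gene was called with each.

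The clones fell in an order from clone 10, at 12.7 ± 4.48 TPM (SD, n = 3), to clone 11, at 1.82 ± 0.852 (SD, n = 2). Clone 10 overlapped clone 8, clone 7 overlapped clone 13, and clone 13 overlapped clone 12. Clones 7, 9 and 11 each lay below the clone above them in every library. The log2 range among clones was 2.26 (limma F test, adjusted p = 8.03e-06). Clone 10 replicate 1 was the highest KRT7 library and also the library with the fewest genes above 0. Without it the log2 fold change of clone 10 was 3.46 in place of 3.70, and the range among clones 2.03. In clone 11 the gene was at 1.44 (SE 0.27), and it lost that call with a pseudocount of 5 (0.44). That pseudocount also brought clone 9 to 0.68 and clone 12 to just under the minimum of 1.

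KRT18 codes for keratin 18, the type I partner of keratin 8, and was the most abundant keratin of the set in each of the 8 groups. Untreated libraries held 42.9, 38.7 and 38.1 TPM. The vemurafenib clones held 85.5, 97.8 and 88.8 TPM in clone 7, 181, 186 and 293 TPM in clone 8, and 152, 198 and 156 TPM in clone 9. The dabrafenib/trametinib clones held 47.5, 42.6 and 138 TPM in clone 10, 63.9 and 74.5 TPM in clone 11, 36.0, 34.4 and 69.9 TPM in clone 12, and 83.4, 45.1 and 70.5 TPM in clone 13. Clones 7, 8, 9, 11 and 13 lay wholly above the untreated libraries, and clones 10 and 12 overlapped them. As deposited, clone 10 also lay wholly above, at 47.1 TPM or more against at most 36.6 TPM in untreated cells. Means ran from 46.8 ± 20.0 TPM (SD, n = 3) in clone 12 to 220 ± 63.2 (SD, n = 3) in clone 8, against 39.9 ± 2.60 (SD, n = 3) in untreated cells.

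In the mean of the clones KRT18 rose by 1.13 on the log2 scale (SE 0.26, limma adjusted p = 0.00112). That call rested on clones 8 and 9, since leaving out clone 8 gave 0.92 and leaving out clone 9 gave 0.98, both under the minimum of 1. By clone, the gene was called at 1.16 in clone 7, 2.40 in clone 8 and 2.04 in clone 9. The other clones stood at 0.70, 0.78, 0.15 and 0.68 in clones 10, 11, 12 and 13, with adjusted p-values between 0.0979 and 0.754. Clone 10 turned on single libraries: it stood at 0.17 without replicate 3 and at 1.01, called, without replicate 2. With the values as deposited, that is unscaled, clone 10 was called at 1.00 and clone 11 at 1.05. The range among clones was 2.25 (limma F test, adjusted p = 1.93e-04).

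KRT8 codes for keratin 8 and lies next to KRT18 on chromosome 12. Its levels were 25.3, 19.5 and 20.8 TPM in untreated cells. They were 29.3, 40.0 and 31.9 TPM in clone 7, 31.3, 36.3 and 62.4 TPM in clone 8, and 40.8, 50.9 and 37.9 TPM in clone 9. In the other clones they ran from 14.8 TPM, in clone 10 replicate 1, to 36.5 TPM, in clone 12 replicate 3. Clones 7, 8, 9 and 12 lay wholly above the untreated libraries, while clones 10, 11 and 13 overlapped them. As deposited, clone 13 also lay wholly above, at 22.4 TPM or more against at most 21.6 TPM in untreated cells. The fold change stayed under the minimum in the mean of the clones, at 0.46 (SE 0.19, limma adjusted p = 0.0447).

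Clones 8 and 9 came closest for KRT8, at 0.90 (adjusted p = 0.00535) and 0.95 (adjusted p = 0.00386). These comparisons lie at the threshold, and single libraries moved them over it: clone 8 was called at 1.00 without untreated replicate 1 and at 1.10 without its own replicate 1, and clone 9 at 1.05 without untreated replicate 1 and at 1.04 without its own replicate 3. Others moved them away from it, down to 0.62 for clone 8, without its replicate 3, and to 0.83 for clone 9. As deposited, clone 9 was called at 1.10. The range among clones was 0.99 (limma F test, adjusted p = 0.0123), again at the edge of the fold minimum, and 7 of the 23 fits that left out 1 library put it at 1.01 to 1.16. These left out, in turn, clone 8 replicates 1 and 2, clone 9 replicates 1 and 3, clone 10 replicates 2 and 3, and clone 11 replicate 2. The table also lists 50 KRT8 pseudogenes, near copies between which reads can be divided, with summed levels of 8.30 ± 0.0911 TPM (SD, n = 3) in untreated cells and group means of 4.02 to 8.64 TPM in the clones. Adding them to KRT8 gave 0.28 in the mean of the clones (adjusted p = 0.16), 0.67 in clone 8 and 0.67 in clone 9. The 67 KRT18 pseudogenes summed to group means of at most 1.60 TPM, and adding them left KRT18 at 1.12.

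The ratio of KRT18 to KRT8, taken within each library and so free of the scaling, differed between groups. It was 1.84 ± 0.142 (SD, n = 3) in untreated cells. Clone 8 had the highest ratio, 5.20 ± 0.544 (SD, n = 3), followed by clone 9 at 3.91 ± 0.203 (SD, n = 3). Clone 7 stood at 2.72 ± 0.244 (SD, n = 3), and none of the 9 vemurafenib-clone libraries overlapped the untreated range of 1.70 to 1.98. The dabrafenib/trametinib clones were more spread: clone 10 ran from 1.82 to 4.72, clone 11 from 2.65 to 4.01, clone 12 from 1.22 to 1.92 and clone 13 from 1.77 to 3.71. Clone 11 thus also lay wholly above the untreated range. In clones 7, 8, 9 and 11 the partner genes changed unequally, and the ratio does not show that either was unchanged. Over the 8 group means on the log2 scale, KRT18 and KRT8 correlated at r = 0.79, and library deviations from the group means at r = 0.60 over 23 libraries. These are descriptions, since both genes share libraries and scaling.

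**Figure D2:**
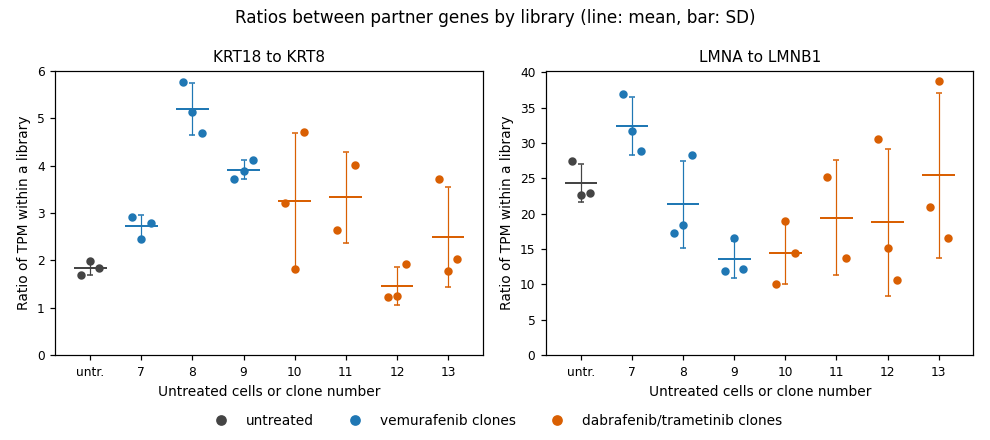
Ratio of KRT18 to KRT8 (left) and of LMNA to LMNB1 (right) within each library, by group, on linear axes from 0. Points are libraries, lines are means and bars are SD. The KRT18 to KRT8 ratio is highest in clone 8, at a mean of 5.20, against 1.84 in untreated cells, and the LMNA to LMNB1 ratio overlaps the untreated range in clones 8, 11, 12 and 13.

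KRT19 codes for keratin 19, the smallest keratin, of simple epithelia. It was listed at 0 in all 3 untreated libraries and in clone 10 replicate 1. The other 19 clone libraries ran up to 0.592 TPM, in clone 8 replicate 2, with the highest group means in clone 8, at 0.393 ± 0.206 (SD, n = 3), and clone 7, at 0.346 ± 0.148 (SD, n = 3). All groups of clones overlapped at least 1 neighbour in the order of levels. NES codes for nestin, a filament protein of neural stem cells that also occurs in melanoma. It was at 0.146, 0.126 and 0.0935 TPM in untreated cells, and its group means in the clones ran from 0.307 ± 0.0254 (SD, n = 3) in clone 7 to 0.721 ± 0.0357 (SD, n = 3) in clone 10. All 20 clone libraries lay above the untreated ones for NES, and none reached 1 TPM.

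Since both genes lie under the filter, they were also fitted without it, among 30088 genes. With the pseudocount of 1, NES was at 0.42 (limma adjusted p = 8.65e-06) and KRT19 at 0.25 (limma adjusted p = 0.0134) in the mean of the clones, under the minimum of 1. With a pseudocount of 0.1, chosen after the levels were seen, NES was at 1.41 and KRT19 at 1.40, and both were called, against 15.2% of all genes in that fit. The call on these genes therefore depends on the pseudocount. At levels this low, few cells with the transcript and little of it in every cell cannot be told apart in bulk RNA.

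VIM codes for vimentin and was by far the most abundant gene of the set, ranked 79th of all genes in untreated cells and between 39th and 60th in the clones. Untreated libraries held 2279, 2179 and 2153 TPM. Clone 7 held 2993, 3075 and 3069.9 TPM, clone 8 held 3322, 3353 and 3358 TPM, and clone 9 held 2469.7, 2646 and 2527 TPM. Clone 10 held 2192, 2361 and 2424 TPM, clone 11 held 1812 and 2121 TPM, clone 12 held 2035, 2172 and 2599 TPM, and clone 13 held 2091, 2414 and 2634 TPM. The 3 vemurafenib clones lay wholly above untreated cells, clone 11 lay wholly below, and clones 10, 12 and 13 overlapped them. Part of this order depends on the scaling. As deposited, untreated libraries held 1946 to 2007 TPM, and clones 10, 12 and 13, at 2078 TPM or more, lay wholly above. Clone 11 then overlapped untreated cells, at 1909 and 2418 TPM. The changes were small: 0.60 in clone 8 (limma adjusted p = 3.26e-04), 0.47 in clone 7 (limma adjusted p = 0.00312) and 0.19 in the mean of the clones (SE 0.09, limma adjusted p = 0.0821). That mean was 0.37 as deposited (limma adjusted p = 0.00512) and 0.25 without clone 11 (limma adjusted p = 0.0269), still under the minimum of 1. In clone 11 the value was -0.17 after scaling and 0.12 as deposited, neither past the test.

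Vimentin transcripts made up most of the cytoplasmic filament transcripts in every group. Of the summed TPM of VIM, NES, SYNM and the 4 keratins, VIM held 97.2 ± 0.156% (SD, n = 3) in untreated cells. The 4 keratins held 2.72 ± 0.159% (SD, n = 3). In the clones the keratin share had means between 3.48% in clone 12 and 7.74% in clone 9, and VIM held between 92.0% and 96.4%. Every library of each clone lay above the highest untreated keratin share of 2.90%.

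SYNM codes for synemin, a large filament protein of muscle and some glial cells that needs vimentin or desmin to form filaments. It stood at 2.11, 2.05 and 2.25 TPM in untreated cells. The vemurafenib clones held 4.49, 6.16 and 6.80 TPM in clone 7, 14.5, 12.8 and 16.7 TPM in clone 8, and 7.58, 7.93 and 6.56 TPM in clone 9. The dabrafenib/trametinib clones held 1.84, 1.86 and 2.54 TPM in clone 10, 21.0 and 21.2 TPM in clone 11, 2.46, 2.32 and 3.36 TPM in clone 12, and 5.42, 3.04 and 3.93 TPM in clone 13. Clones 7, 8, 9, 11, 12 and 13 lay wholly above untreated cells, whereas clone 10 overlapped them. Clone 11 and then clone 8 stood above every other group, and the neighbours below them in the order, clones 9, 7 and 13, overlapped from one to the next.

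SYNM had the largest range between clones of the 7 tested genes, 2.85 (limma F test, adjusted p = 1.97e-09). Its log2 fold change was 2.82 in clone 11 (SE 0.19, adjusted p = 3.9e-10), 2.31 in clone 8 (SE 0.17, adjusted p = 1.25e-09), 1.41 in clone 9 and 1.11 in clone 7. In clone 13 it was 0.68 (limma adjusted p = 0.00266), under the minimum of 1, and in clones 12 and 10 it was 0.23 and -0.03. The mean of the clones stood at 1.22 (SE 0.13, adjusted p = 1.55e-07). Without clone 11 the mean was 0.95 and not called, and with a pseudocount of 5 it was 0.74 and not called. The same pseudocount brought clone 7 to 0.59 and clone 9 to 0.79, which ended those calls.

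**Figure D3:**
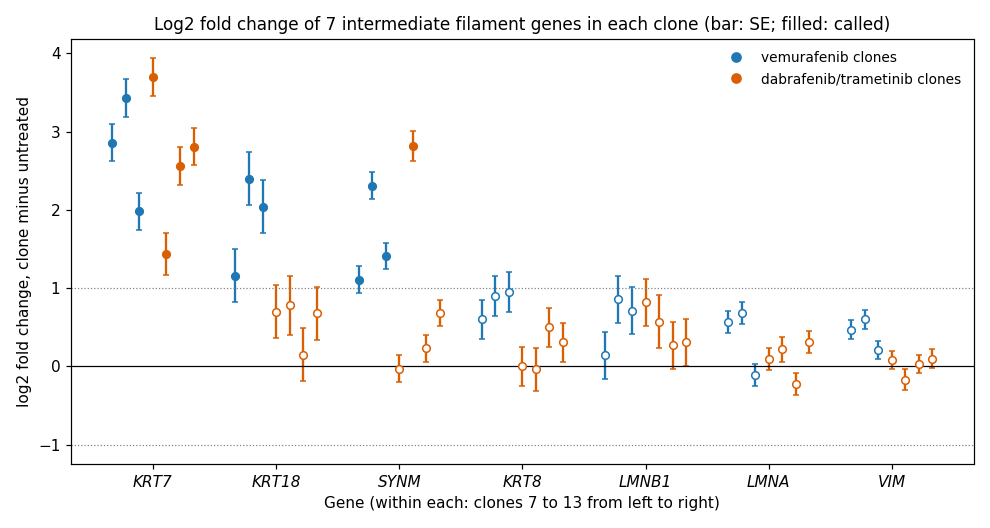
Log2 fold change of the 7 tested genes in each clone against untreated cells, with clones 7 to 13 from left to right within each gene; bars are SE, filled points were called and dotted lines mark the minimum of 1. KRT7 is filled in all 7 clones, KRT18 in clones 7, 8 and 9, and SYNM in clones 7, 8, 9 and 11.

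The promoters of VIM, the most abundant gene, and SYNM, the gene that differed most between clones, are shown to set their base content side by side. Of the 9 genes, 6 had an entry in the RefSeq promoter table (GRCh38.p14): VIM, NES, KRT8, LMNA, LMNB1 and SYNM. Each sequence is the 250 bases before a RefSeq start site, one of possibly several, on the gene's strand, with GC boxes (GGGCGG on either strand) in capitals.
VIM, chr10:17227991-17228240, plus strand: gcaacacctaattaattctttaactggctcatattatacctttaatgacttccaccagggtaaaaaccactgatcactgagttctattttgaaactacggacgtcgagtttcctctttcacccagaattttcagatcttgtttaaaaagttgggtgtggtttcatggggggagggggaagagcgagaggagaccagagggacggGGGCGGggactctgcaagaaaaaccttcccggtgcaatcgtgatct
SYNM, chr15:99104830-99105079, plus strand: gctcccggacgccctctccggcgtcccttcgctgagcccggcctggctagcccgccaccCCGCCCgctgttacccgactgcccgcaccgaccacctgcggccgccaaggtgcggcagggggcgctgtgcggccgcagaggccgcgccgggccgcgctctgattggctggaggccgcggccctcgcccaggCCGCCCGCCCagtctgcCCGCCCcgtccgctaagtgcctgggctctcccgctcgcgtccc
The VIM window held 1 GC box and the SYNM window 4, with an overlap between a pair of them. NES and LMNA had 2 each, LMNB1 had 4 and KRT8 had 0. At least 1 GC box occurred in 42.6% of all 35116 promoter windows of the same length in the table. Neither TGANTCA, the letters of an AP-1 site, nor GGAATG, those of a TEAD site, was found on either strand in any of the 6 windows. They occurred in 6.57% and 11.9% of all windows. These matches describe letters in a window and say nothing of binding.

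LMNA codes for lamins A and C. Untreated libraries held 287, 301 and 287 TPM. Clone 8 held 446, 494 and 465 TPM, clone 7 held 469.9, 439 and 390.1 TPM, and clone 9 held 267, 271 and 273 TPM. In the other clones the gene ran from 204 TPM, in clone 12 replicate 2, to 412 TPM, in clone 13 replicate 1. Clones 7, 8 and 11 lay wholly above untreated cells, clone 9 lay wholly below, and clones 10, 12 and 13 overlapped them. Part of this order depends on the scaling. As deposited, untreated libraries held 245 to 277 TPM and clone 9 overlapped them, at 281, 249 and 282 TPM. Clones 10 and 13, at 303 TPM or more, then lay wholly above. The log2 fold change of clone 9 was -0.11 after scaling (limma adjusted p = 0.567) and 0.04 as deposited. The log2 fold change was 0.68 in clone 8 (limma adjusted p = 4.79e-04) and 0.57 in clone 7 (limma adjusted p = 0.00249), both under the minimum, and 0.22 in the mean of the clones (SE 0.11, limma adjusted p = 0.0895). The clones differed from each other by a range of 0.91 (limma F test, adjusted p = 1.51e-04), under the fold minimum. It was 1.03, and called, without clone 12 replicate 1.

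LMNB1 codes for lamin B1, which is present in all nucleated cells and whose transcript is higher in dividing cells. Untreated libraries held 10.4, 13.3 and 12.5 TPM. The 20 clone libraries ran from 9.54 TPM, in clone 12 replicate 1, to 29.2 TPM, in clone 10 replicate 1, with a median of 16.9 TPM. Clones 8, 9, 10 and 11 lay wholly above untreated cells and clones 7, 12 and 13 overlapped them. As deposited, clone 7 lay just above, at 12.3 TPM or more against at most 12.2 TPM in untreated cells. Clone 8 replicate 3 then stood at 12.2 TPM as well. The spread within a clone was wide: clone 12 held 9.54, 13.4 and 24.4 TPM and clone 10 held 29.2, 14.7 and 24.6 TPM. No clone was called, the nearest being clone 8 at 0.86 (limma adjusted p = 0.0261) and clone 10 at 0.82 (limma adjusted p = 0.0306). Clone 8 was called at 1.08 without its replicate 3, and clone 10 at 1.10 without its replicate 2 and at 1.11 as deposited, while it stood at 0.64 without its replicate 1. The mean of the clones stood at 0.53 (SE 0.23, limma adjusted p = 0.0598), and the range among clones at 0.71 (limma F test, adjusted p = 0.218).

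Genes of cycling cells moved with LMNB1 from library to library. Over 14 such genes, the mean log2 level was 4.78 to 4.82 in untreated libraries and 4.99 to 6.20 in the clone libraries. With the clones averaged, limma called 3 of them higher and 0 lower, where 10.9% and 7.91% of all genes were called. They were RRM2, a subunit of the enzyme that makes deoxynucleotides, at 1.86, and the cyclins CCNA2 at 1.33 and CCNB1 at 1.10. Across the 23 libraries LMNB1 correlated with the cycling mean at r = 0.66, and at r = 0.72 when each value was taken as its deviation from the group mean. The points share library and scaling, so no p is given. The part of cycling cells in the LMNB1 levels was not tested. The ratio of LMNA to LMNB1 was 24.4 ± 2.75 (SD, n = 3) in untreated cells and ran from 13.5 ± 2.69 (SD, n = 3) in clone 9 to 32.5 ± 4.13 (SD, n = 3) in clone 7. Clones 9 and 10 lay wholly below untreated cells in this ratio and clone 7 wholly above.

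**Figure D4:**
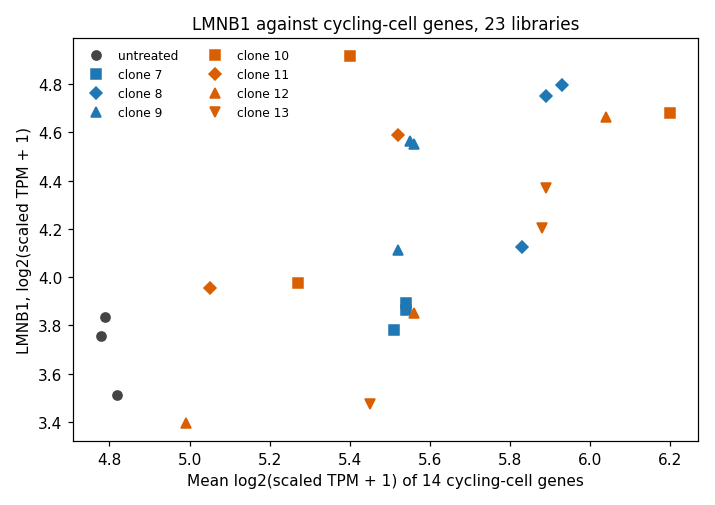
LMNB1 level against the mean level of 14 cycling-cell genes, both as log2(scaled TPM + 1), in 23 libraries. Symbols are groups; untreated libraries lie at the low end of both axes, and clone 12 spans 4.99 to 6.04 on the horizontal axis.

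The drug arms were compared with the clone as the unit, 3 vemurafenib clones against 4 dabrafenib/trametinib clones. None of the 7 tested genes was called, and limma called 0.0128% of all genes, namely MT1X and NTN4. After scaling, VIM, KRT8 and KRT18 had clone means that did not overlap between arms, 3 of 7, against 14.3% of all genes. KRT18 was higher in the vemurafenib clones, at 90.7 to 220 TPM against 46.8 to 76.0 TPM. The log2 difference was 1.29 (SE 0.29, limma adjusted p = 0.195). KRT8 had means of 33.7 to 43.4 TPM against 21.3 to 31.3 TPM, a difference of 0.63 (SE 0.17, limma adjusted p = 0.233). VIM had means of 2548 to 3344 TPM against 1966 to 2379.6 TPM, a difference of 0.41 (SE 0.17, limma adjusted p = 0.323). A two-sided exact permutation of the 7 clones gave 0.0286 for KRT18 and VIM, the smallest p that 3 against 4 allows, and 0.0571 for KRT8, all unadjusted and computed for 9 genes on scaled values. For VIM and KRT8 the separation of the arms depended on the scaling. As deposited, clone 10 held 2468, 2615 and 2686 TPM of VIM, with a mean above that of clone 9, at 2605, 2434 and 2616 TPM. For KRT8, clone 12 held 30.1, 29.2 and 38.2 TPM, with a mean above that of clone 7, at 29.0, 35.4 and 31.3 TPM. Over all genes, 14.4% had an unadjusted limma p under 0.05 in this comparison, KRT18, KRT8 and VIM among them. For KRT7, LMNA, LMNB1 and SYNM the arms overlapped, and SYNM was highest in a dabrafenib/trametinib clone and next highest in a vemurafenib clone.

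Beyond these genes, other keratins were mostly very low. Of 51 other keratin genes 13 passed the filter. Apart from KRT10, KRT27 and KRT222, these had untreated means under 1 TPM and entered the test through clone libraries in which they were high, so their counts are descriptions. Over the clone average, limma called 3 of the 13 higher and 1 lower, where 10.9% and 7.91% of all genes were called. Their median log2 fold change was 0.595. In the test among clones 8 of the 13 were called, where 25.3% of all genes were. Untreated cells had 0.120 ± 0.0762 TPM (SD, n = 3) of KRT34, a hair keratin. It was higher in all 7 clones, from 6.53 ± 8.52 (SD, n = 3) in clone 10 to 88.8 ± 8.10 (SD, n = 3) in clone 7, with a log2 fold change of 4.64 (SE 0.40). Clone 10 was uneven for this gene, at 16.3, 0.576 and 2.73 TPM. KRT33B, its neighbour among hair keratins and close in sequence, had a log2 fold change of 1.44, with its highest mean, 10.2 ± 2.16 TPM (SD, n = 3), also in clone 7. Reads can be divided between such near copies, so the split between KRT33B and KRT34 is uncertain. Since neither reached 1 TPM in untreated cells, these changes and the one of KRT17 carry no p here.

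KRT17, a keratin of basal cells and hair follicles, was high in 2 clones. Clone 11 held 26.5 and 105 TPM and clone 8 held 7.35 ± 1.73 TPM (SD, n = 3), and the other 5 clones had means of at most 0.105 TPM. Its call in the mean of the clones, 1.26, was lost without clone 8 (0.97) and without clone 11 (0.52). KRT14 and KRT16 are close copies of KRT17, and their split is uncertain as well. KRT27, a hair follicle keratin, went the other way. Untreated cells held 7.19 ± 1.07 TPM (SD, n = 3), and its clone means were at most 0.0126 TPM, a log2 fold change of -3.02 (SE 0.08). It passed the filter through the untreated libraries alone, and so carries no p either. With a pseudocount of 5, KRT33B (0.51) and KRT17 (0.69) were not called.

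Among 10 other intermediate filament genes 7 were tested, with 2 called higher, 2 lower (all genes: 10.9% and 7.91%) and a median log2 fold change of 0.336. BFSP2 entered the test through untreated libraries alone and DES through clone libraries alone, so both are given without a p and the count is a description. BFSP2, a filament protein of the eye lens, fell from 15.1 ± 1.81 TPM (SD, n = 3) to at most 0.337 TPM in any clone mean, a log2 fold change of -3.86 (SE 0.09). BFSP1, its lens partner, fell by 1.20 (limma adjusted p = 3.13e-08), and stood at 32.8 ± 1.84 TPM (SD, n = 3) without drug and at 8.86 to 20.9 TPM in the clone means. SYNC, syncoilin, a filament protein of muscle, rose by 1.86 (SE 0.09, limma adjusted p = 2.73e-12), from 10.7 ± 0.839 TPM (SD, n = 3) to means between 24.9 and 93.9 TPM. Clone 11 had the highest SYNC mean, as it had for SYNM and for DES, the desmin gene of muscle. Untreated cells had 0.0342 ± 0.0219 TPM (SD, n = 3) of DES, and clone 11 had 16.4 and 11.8 TPM. Its call in the mean of the clones, 1.09, was lost without clone 11 (0.63) and with a pseudocount of 5 (0.42). In both lists together, 41 genes stayed below the filter, none above 1.62 TPM in any library.

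**Figure D5:**
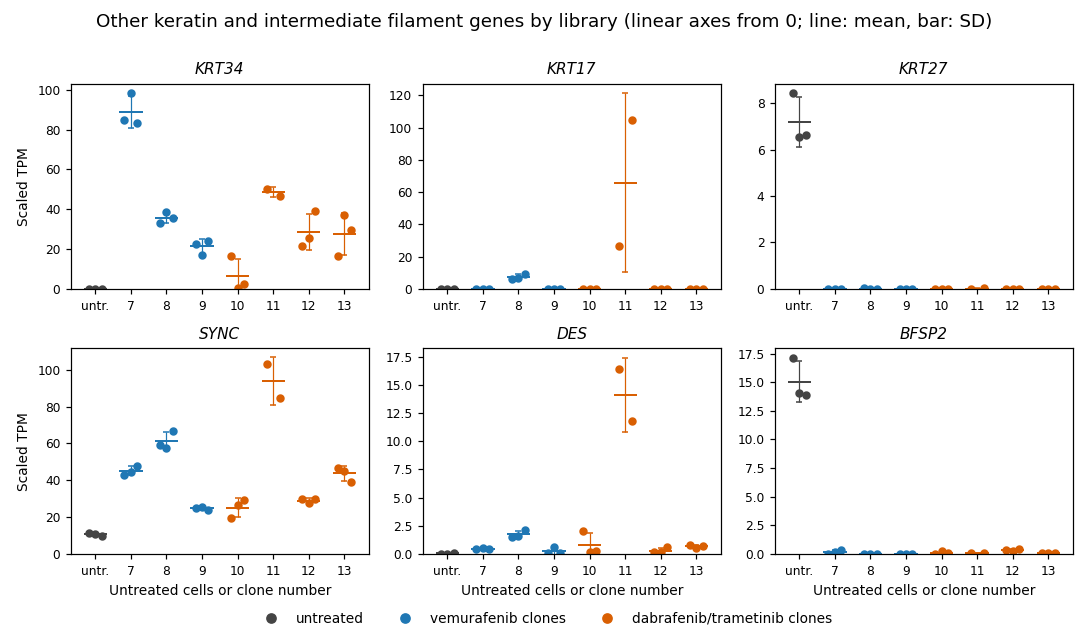
Scaled TPM of 6 other keratin and intermediate filament genes in each library, on linear axes from 0; points are libraries, lines means and bars SD. KRT27 and BFSP2 are present in untreated cells and near 0 in the clones, while KRT17 and DES are highest in clone 11.

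Genes that link filaments to the cell or the nucleus are given beside the share called over all genes, 10.9% higher and 7.91% lower. Of 7 plakins and linkers 4 were tested and 1 was called, PPL, periplakin of the cornified envelope, at 1.20. Its level was 0.229 TPM without drug, and clone means lay between 0.518 and 3.08 TPM. It entered the test through clone libraries alone and is given without a p. That call was lost with a pseudocount of 5 (0.40). The median of the 4 was -0.0103. All 18 lamin partners and processing genes were tested, with 1 called higher, 1 lower and a median of 0.148. NRM, nurim, a nuclear envelope protein, rose by 1.54 (SE 0.17, limma adjusted p = 2.36e-07), with 12.7 ± 0.924 TPM (SD, n = 3) before and 30.2 to 44.3 TPM as the clone means. LBR, the lamin B receptor, which holds heterochromatin at the nuclear rim, fell by 1.03 (SE 0.18, limma adjusted p = 8.27e-05), from 30.2 ± 5.51 TPM (SD, n = 3) to between 7.84 in clone 7 and 23.9 in clone 10. This call lies at the threshold: LBR stood at -0.86 as deposited and -0.85 with a pseudocount of 5, and it was not called without untreated replicate 3 (-0.92), clone 8 replicate 3 (-0.99) or clone 9 replicate 2. Leaving out the whole of clone 7 (-0.90) or of clone 8 (-0.93) also ended the call.

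Markers of other cell types were read beside the keratins, and their counts beside the share of all genes called, 10.9% higher and 7.91% lower. Of 11 epithelial markers, EPCAM, CDH1, CLDN7, GRHL2, KRT5 and DSG3 stayed below 1 TPM in all 23 libraries. The summed level of the 11 was 41.7 to 50.5 TPM in untreated cells and 0.513 to 7.17 TPM in the clones, and of the 4 tested 0 were called higher and 1 lower. The lower one was ESRP1, an epithelial splicing factor, which made up most of the untreated sum with 41.7 ± 4.19 TPM (SD, n = 3). Other markers of the list went the other way in the clones with KRT17. TP63, a transcription factor of basal epithelium, was at 0.189 ± 0.0482 TPM (SD, n = 3) without drug and at 3.80 ± 1.14 TPM (SD, n = 3) in clone 8. KRT14, a basal keratin, was listed at 0 in untreated cells and stood at 1.27 and 2.46 TPM in clone 11. TP63 and KRT14 entered the test through clone libraries alone, so the epithelial count is a description. The melanocyte markers summed to between 12661 and 13127 TPM in untreated cells and to between 29.6 and 477 TPM in the clones, with all 7 called lower. Fibroblast markers moved the other way, from 58.7 to 68.5 TPM in untreated cells to between 2134 and 8022 TPM in the clones. COL1A1 made up most of the sum in the clones, with clone means of 2013 to 6187 TPM, and THY1 stayed below 1 TPM throughout. All 7 of 7 tested were called higher. Of these, COL1A2, COL3A1, PDGFRB and FAP were at 0.409 TPM or less in every untreated library. They entered the test through clone libraries alone, so this count is a description.

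The muscle markers, which include DES, summed to between 1.51 and 3.24 TPM in untreated cells and to between 2.06 and 245 TPM in the clones. CNN1, a smooth muscle calponin, made up most of the highest sum, at 201 ± 37.1 TPM (SD, n = 2) in clone 11, the clone with the highest SYNM, SYNC and DES. MYOD1 stayed below 1 TPM in every library. Neuron markers ran from 4.12 to 5.15 TPM in untreated cells and from 14.0 to 64.8 TPM in the clones, with STMN2, ELAVL4, DCX, RBFOX3, NEFM and INA below 1 TPM throughout. The rise of the sum was that of 1 gene, SNAP25, which is part of the membrane fusion machinery and had 0.394 TPM without drug and 14.5 to 57.1 TPM in the clone means. SYP, a synaptic vesicle protein, had a mean of 3.37 TPM without drug and 1.51 to 3.12 TPM in the clones. Endothelium markers summed to 1.54 to 1.66 TPM in untreated cells and to 1.46 to 5.43 TPM in the clones. Immune cell markers summed to 1.70 to 1.99 TPM in untreated cells and to 1.49 to 11.8 TPM in the clones. Among the latter, CSF1R had a mean of 0.398 TPM without drug and clone means of 1.05 to 8.55 TPM. PTPRC had 1.24 TPM without drug and clone means of 0.891 to 4.12 TPM. The part of these programmes in the filament gene levels was not tested.

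For each tested gene, the genes with the most similar pattern over the 8 group means of log2 levels were taken from 11711 candidates with a highest group mean of at least 5 TPM. SYNM was most like COL5A3 (r = 0.99), a collagen gene that ran from 2.43 to 115 TPM, and AC112721.1 (r = 0.985). LMNB1 was most like SMC4 (r = 0.984), a condensin subunit of dividing cells, and FAM160B1 (r = 0.968). KRT7 was most like GTSE1 (r = 0.982) and PSMA3 (r = 0.979), and KRT8 like SSBP4 (r = 0.982) and RP11-343C2.12 (r = 0.977). KRT18 was most like P2RY6 (r = 0.955) and TCF3 (r = 0.953), LMNA like RAN (r = 0.955) and EBNA1BP2 (r = 0.952), and VIM like C21orf59 (r = 0.97) and EAF2 (r = 0.967). Each r rests on 8 points and was picked as among the highest of 11711, so it is a description.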

How the data were processed

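Paired-end libraries of poly(A) RNA were made from 23 samples, 1 each. The deposited table holds TPM, although it is named as counts: each column sums to 1000000. Per the submitters' processing notes, kallisto and hg19 were used, with no version. For the annotation and any filter, the sources used here give nothing. No counting interval is given, because TPM carries no read depth.

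Here, TPM was scaled by a trimmed mean of log ratios (30% of ratios and 5% of levels trimmed, 10822 genes with at least 1 TPM in every library, multipliers 0.877 to 1.35). Genes at 1 TPM or more in at least 2 libraries, 15657, entered 1 limma 3.58.1 fit (R 4.3.3, eBayes with trend) of log2(scaled TPM + 1) with 8 groups and 15 residual degrees of freedom. Scaling moved the clone fold changes: their median over all genes was -0.0098 with it and 0.135 as deposited, and the median difference was 0.163. The fit was also run on simulated data, with independent noise and with changes added to genes of higher level only. That run says nothing of genes near 0 in untreated cells, such as KRT7. Alternatives were unscaled values, pseudocounts of 0.1 and 5, no filter and a filter at 5 TPM, no trend, a replicate block, leaving out each library and each clone, and pseudogenes added, the last chosen after the data were seen.

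The genes and lists were chosen with earlier results of these data known. Named were the 10 genes, up to 4 called genes of each list by size, marker lists by counts, and the 2 most similar genes. MT1X, NTN4, ESRP1, TP63, KRT14, SNAP25, SYP, CNN1, COL1A1, COL1A2, COL3A1, PDGFRB, FAP, CSF1R and PTPRC were named after their values were seen. No pair of libraries held identical values.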

Additional observations from a re-analysis of the deposited data

Results flagged for a closer look

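KRT18 in clone 12, at a mean of 46.8 TPM, was the lowest of the 4 dabrafenib/trametinib clones, the other 3 standing at 66.3 to 76.0 TPM. On the mean log2 scale, its gap to the nearest of them was 0.841 of the range of the 4 clones, above the critical value of 0.829. Among 18 such gene-by-clone-set checks this was the 1 result flagged, and chance flags about 1 in 20. Within clone 12 the libraries held 36.0, 34.4 and 69.9 TPM, and clones 10 and 13 overlapped it, with 47.5, 42.6 and 138 TPM and 83.4, 45.1 and 70.5 TPM. The gap also rested on clone 10 replicate 3: without that library the log2 fold change against untreated cells was 0.17 in clone 10 and 0.15 in clone 12.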

How the results depend on the processing

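Of 2604 values of the 7 tested genes under 38 alternatives, 2552 kept their direction and side of the threshold, 9 lost a call, 21 gained one and 22 changed sign, the last all in uncalled comparisons. Pseudocount 5 lowered the counts of all genes called, from 2939 to 1667 in the mean of the clones, to 1694, 1821, 1805, 1987, 2005, 1770 and 1835 in clones 7 to 13, and to 2091 among clones, by construction of the log scale. As deposited, the split of higher and lower calls went from 1845 and 1649 to 2515 and 1173 in clone 10, from 1832 and 1492 to 2484 and 1036 in clone 11, from 1798 and 1256 to 2171 and 967 in clone 12, and from 1923 and 1308 to 2325 and 996 in clone 13. The 2 genes called between drug arms became 0 as deposited, with pseudocount 0.1, with no filter, without trend and without clones 7, 8, 9, 10, 12 or 13, became 12 without clone 11, and ran from 0 to 5 when single libraries were left out; the cause was not tested.

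The sign changed as deposited for LMNA in clone 9 (0.04), for clone 10 in KRT8 (0.29) and SYNM (0.17), for clone 11 in VIM (0.12) and KRT8 (0.23), and between arms for KRT7 (-0.01) and LMNB1 (-0.08). KRT8 in clone 10 moved from just under 0 to just over 0.00 with pseudocount 5, to 0.10 without untreated replicate 1 and to 0.27 without clone 10 replicate 1. SYNM in clone 10 was 0.03 and 0.02 without its replicates 1 and 2, with -0.14 as the lowest of its leave-one-out values, and LMNA there ran from -0.02, without replicate 3, to 0.16. KRT8 in clone 11 was 0.07 without untreated replicate 1 and 0.14 without clone 11 replicate 3. Without clone 12 replicate 3, that clone stood at -0.07 for VIM, -0.17 for KRT18 and -0.08 for LMNB1; the highest values with another library left out were 0.11, 0.33 and 0.56. Between arms, KRT7 was -0.21 without clone 8 and -0.27 without clone 11, and LMNB1 was -0.07 without clone 8 and 0.00 without clone 11 replicate 2 (highest leave-one-out value 0.16). Where a clone lost 1 of its libraries, its spread was taken from the pooled fit.

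Replicate numbers did not pair the libraries: deviations of same-numbered libraries correlated at a median of 0.0143 (77 pairs, 28 over 0.1), and 9 of 23 libraries correlated best with one of their own number. With a replicate block, 2945 genes were called in the mean of the clones, and KRT8 was called among clones at a range of 1.08, in place of 0.99; the block changed no other call of the 7 genes.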
